A study of Mus musculus with 28 samples.

Results

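The cytoplasmic ribosomal protein genes of the mouse were described across sorted splenic dendritic cells. They were taken as every protein-coding row whose symbol is built from Rpl or Rps and a number, with Rplp0, Rplp1, Rplp2 and Rpsa added, and 83 of the 55487 gene rows met this rule in both deposited tables. The 83 members comprise 43 proteins of the large subunit, 31 of the small subunit, 3 of the stalk and 6 paralogs. Genes such as Fau, Rpl36al and Rack1, which also encode ribosomal proteins or a ribosome-bound protein, carry other symbols and were kept as a separate list.

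The study sorted conventional dendritic cells (cDC) from the spleens of C57BL/6 mice and sequenced bulk RNA in 2 experiments with 28 libraries, 14 groups and 2 biological replicates a group. Experiment 1 (16 libraries) had cDC1 and cDC2 from wild type (WT), Irf8 +32H/+ (here H/+) and Irf8 +32H/H (here H/H) mice, with hybrid cDC from both mutant genotypes. Experiment 2 (12 libraries) had no cDC2. Its cDC1 came from WT mice and from H/H mice with intact or deleted Nfil3 (Nfil3-/-). Its hybrid cDC came from the same pair of H/H genotypes and from H/H mice with Zeb2 -165D123, so the Nfil3-/- and Zeb2 -165D123 mice all carried Irf8 +32H/H as well. The H allele alters the Irf8 enhancer at +32 kb, -165D123 names an allele of the Zeb2 enhancer at -165 kb, and the sort gates, ages and sexes are not given in the labels. The labels do not state whether the biological replicates came from separate mice or pools, so p-values measure the spread between these samples only. In experiment 1, Xist, which is made in female cells, was above 10 CPM in 1 library of each group, always replicate 2. The 2 replicates of a group there thus differed in sex make-up, and sex and replicate number cannot be told apart.

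A ribosome is built from ribosomal RNA and about equal numbers of each ribosomal protein, and cells make the proteins of both subunits in step. The mRNAs of most of these proteins begin with a cytosine followed by a run of pyrimidines, the terminal oligopyrimidine or TOP motif, through which LARP1 and the kinase complex mTORC1 control their translation, and Myc family factors raise their transcription together with that of ribosome assembly factors. cDC1 depend on the transcription factor IRF8 and cross-present antigen to CD8 T cells, whereas cDC2 depend on other factors and mainly prime CD4 T cells.

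The start regions of 6 members are printed because these genes lie at the ends of the range described below: Rps27l, Rps26, Rpl14 and Rpl28 were among the members with the largest differences between cDC1 and cDC2, and Rps27 and Rps9 had negative ones. Each sequence is taken from RefSeq (GRCm38.p6) and runs 5′ to 3′ on the gene's strand from 60 bases before to 30 bases from the annotated start on. Its longest unbroken run of C and T is in capitals, wherever that run lies, so the capitals do not mark a TOP motif. In Rps26 and Rps27l the marked run lies before the annotated start. Rps27l also holds another run of the same length, which is not marked.
Rps27l (chr9:66946026-66946115, plus strand): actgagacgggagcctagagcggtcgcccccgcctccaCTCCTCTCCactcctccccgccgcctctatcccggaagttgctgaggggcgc
Rps26 (chr10:128626477-128626566, minus strand): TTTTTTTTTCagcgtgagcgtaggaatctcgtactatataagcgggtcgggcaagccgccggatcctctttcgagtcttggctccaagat
Rpl14 (chr9:120571457-120571546, plus strand): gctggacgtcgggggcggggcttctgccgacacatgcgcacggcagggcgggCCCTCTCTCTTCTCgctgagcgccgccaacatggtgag
Rpl28 (chr7:4792905-4792994, plus strand): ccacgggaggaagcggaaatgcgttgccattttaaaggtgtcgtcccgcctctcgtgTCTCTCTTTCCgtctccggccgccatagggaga
Rps27 (chr3:90213619-90213708, minus strand): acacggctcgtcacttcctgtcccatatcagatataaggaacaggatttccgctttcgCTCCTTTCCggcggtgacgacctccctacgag
Rps9 (chr7:3703981-3704070, plus strand): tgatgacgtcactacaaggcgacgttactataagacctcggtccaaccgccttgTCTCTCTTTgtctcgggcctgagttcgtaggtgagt

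RefSeq start regions were matched for 63 of the 83 members, some with more than 1 start. A run of at least 8 bases of C and T on the gene's strand lay within 40 bases on either side of a start in 48 of the 63 (76.2%), against 32.6% of all 27025 genes with a start region, and the median longest run was 10 bases in members and 6 in all genes. From 250 bases before to 50 bases after the start and on either strand, the motif CCGGAAG was found in 26 members (41.3% against 9.93% of all genes), AAGATGG in 10 (15.9% against 7.28%) and TATAAA in 7 (11.1% against 15.7%). Among tested members with a pyrimidine run, 22 of 47 were higher in WT cDC1 than in WT cDC2, with a median log2 difference of 0.32, and among those without a run 10 of 14 were, with a median of 0.41, where 20.5% of all genes were called higher. The difference between these 2 sets of members was not tested.

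Library totals were 23393634 to 38174251 rounded expected counts in experiment 1 and 17540496 to 22708493 in experiment 2. The cDC1 marker list summed to between 2871 and 5926 CPM in the cDC1 of experiment 1, 452 to 568 in cDC2 and 1605 to 2085 in hybrid cDC, and all 9 markers of each of the cDC1 and cDC2 lists differed between WT cDC1 and cDC2 in the direction of their name. Nfil3 was at 3.68 and 2.76 CPM in the Nfil3-/- cDC1 libraries against 36.9 and 35.7 in H/H cDC1, and at 5.62 and 5.70 in the Nfil3-/- hybrid libraries against 41.5 and 55.3 in H/H hybrid cDC. Zeb2 was at 10.3 and 19.6 CPM in the Zeb2 -165D123 hybrid libraries against 38.6 and 46.9 in H/H hybrid cDC. Both differences have the direction of the labels. The H/+ cDC1 replicates differed more over all genes than any other pair of replicates, with a chi-square per degree of freedom of 44.7 against 9.07 to 35.7 in the other groups, so results that use H/+ cDC1 are also given without either replicate where that moves them. CPM gives a count relative to the total count of its library, and these totals are scaled by the trimmed mean of M-values (TMM) within each experiment, so levels are not compared between the experiments.

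Of the 83 members, 81 had enough counts to be tested in both experiments. Rpl10l, a paralog of Rpl10 best known from testis, had at most 2 counts in any library and was at 0 in 23 of 28. Rpl3l, the paralog of Rpl3 known from striated muscle, had at most 6 counts and was at 0 in 7 of 28 libraries. Rpl39l, a paralog known from male germ cells, passed the filter in both tables at a trace level and had a mean of 0.0720 CPM in WT cDC1 and 0.347 CPM in WT cDC2.

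Per kilobase of coding sequence, the 77 core members, which leave out the 6 paralogs, ranged from 193 to 21883 CPM as the mean of the 14 groups, with a median of 1444, and 50 of the 77 lay within 2-fold of that median. The highest level per kilobase was that of Rpl41, the shortest ribosomal protein, at 21883 (16316 to 28174 over the groups) with a coding length of 75 bases. Rps29 at 6767 (5105 to 8972) and Rpl32 at 5576 (4558 to 6667) followed. These means and ranges take in the groups of both experiments, which were scaled separately, so a range can hold a difference between the experiments. Coding length leaves out the rest of the mRNA, which weighs most for so short a coding sequence, so the level of Rpl41 is the least certain of these. Rpl41 had a mean of 1641 CPM on a transcript of 437 bases, and Rpl32 had 2258 CPM on one of 517 bases. By transcript length Rpl41 would lie below Rpl32, so its first rank and the upper end of the range hold for coding length only. The 3 stalk proteins were close to each other on the same scale, at 2936 for Rplp0, 2811 for Rplp1 and 2402 for Rplp2. The lowest core member was Rpl5, which carries the 5S ribosomal RNA into the large subunit, at 193. Of the paralogs, Rps27l at 374, Rpl7l1 at 208 and Rpl22l1 at 191 lay near the lower end of the core range, and Rpl39l at 1.57, Rpl3l at 0.0476 and Rpl10l at 0.0130 were the 3 lowest of all members.

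**Figure D1:**
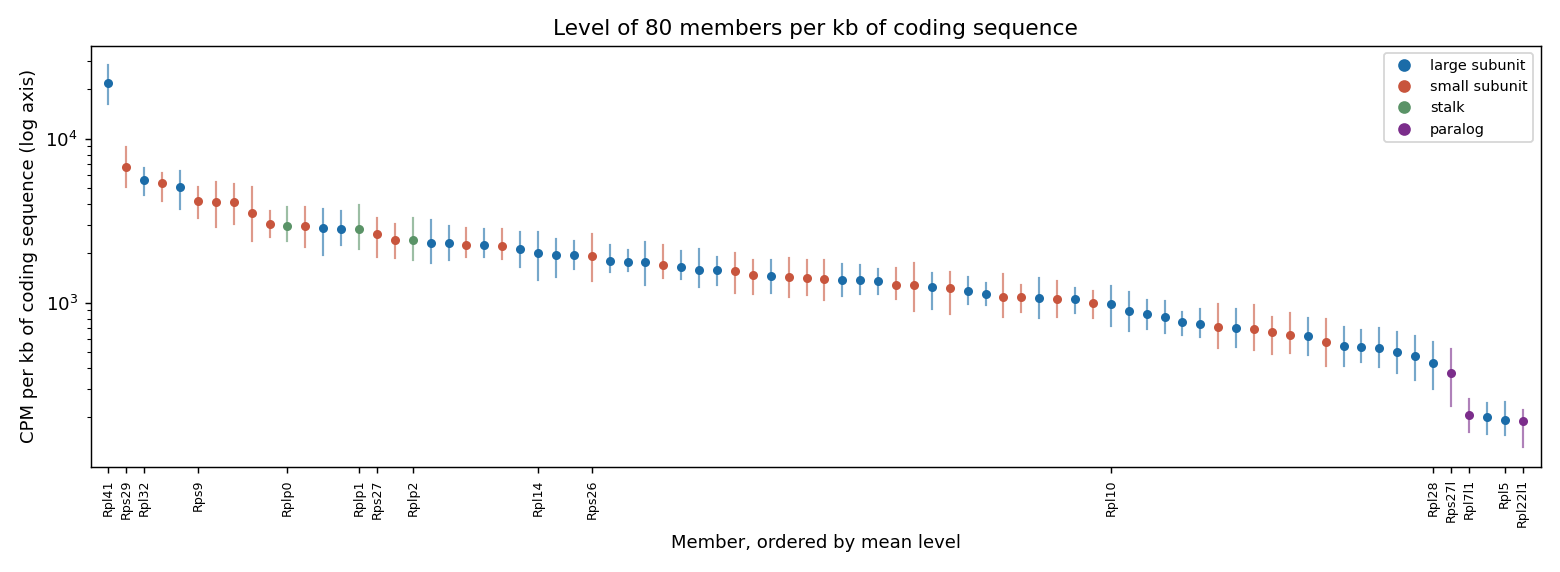
Level of 80 members in TMM-scaled CPM per kilobase of coding sequence on a log axis, ordered by level, where each point is the mean of the 14 groups and each line runs from the lowest to the highest group mean. The groups are those of both experiments, which were scaled separately. Rpl39l, Rpl3l and Rpl10l are left out, and names are given for a few of the members described in the text. Rpl41 stands highest at 21883, and most members lie within 2-fold of the median of core members at 1444.

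Summed over all members as TMM-scaled CPM, most cDC1 and all hybrid cDC libraries of experiment 1 carried more ribosomal protein mRNA than the cDC2 libraries. The sum was 84893 and 81020 CPM in the WT cDC1 replicates, 71349 and 62849 in WT cDC2, 66339 and 83341 in H/+ cDC1 and 65234 and 54481 in H/+ cDC2. It was 79687 and 79963 CPM in H/+ hybrid, 87040 and 82126 in H/H hybrid, 78745 and 81097 in H/H cDC1 and 58270 and 63142 in H/H cDC2. All 4 hybrid libraries (79687 to 87040) and 5 of the 6 cDC1 libraries (78745 to 84893) lay above every cDC2 library (54481 to 71349), whereas H/+ cDC1 replicate 1, at 66339, lay inside the cDC2 range. Without TMM scaling the cDC1 and cDC2 ranges overlapped widely. Members took 6.47% to 7.90% of all counts in cDC1, 6.06% to 7.55% in cDC2 and 7.65% to 8.05% in hybrid cDC. In WT, cDC1 had 7.75% and 7.44% against 7.55% and 6.79% in cDC2. In H/+ it had 6.47% and 7.90% against 6.95% and 6.06%. Only H/H cDC1, at 7.54% and 7.85%, lay above the cDC2 of its genotype, at 6.48% and 7.02%. In bulk RNA, a different amount of these mRNAs per cell and a different amount of all other mRNA per cell cannot be told apart, nor can a different mixture of cells in the sort.

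In experiment 2 the sum was 64617 and 66689 CPM in H/H cDC1, 65296 and 68428 in WT cDC1 and 57314 and 58360 in Nfil3-/- cDC1. In hybrid cDC it was 64570 and 66277 in H/H, 63382 and 57771 in Nfil3-/- and 67007 and 54789 in Zeb2 -165D123. The Nfil3-/- cDC1 libraries lay below the other cDC1 libraries without overlap, while the Zeb2 -165D123 replicates lay on either side of the H/H hybrid libraries. The ratio of small to large subunit mRNA was nearly constant, at 0.748 to 0.797 over the libraries of experiment 1 and 0.749 to 0.782 over those of experiment 2.

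**Figure D2:**
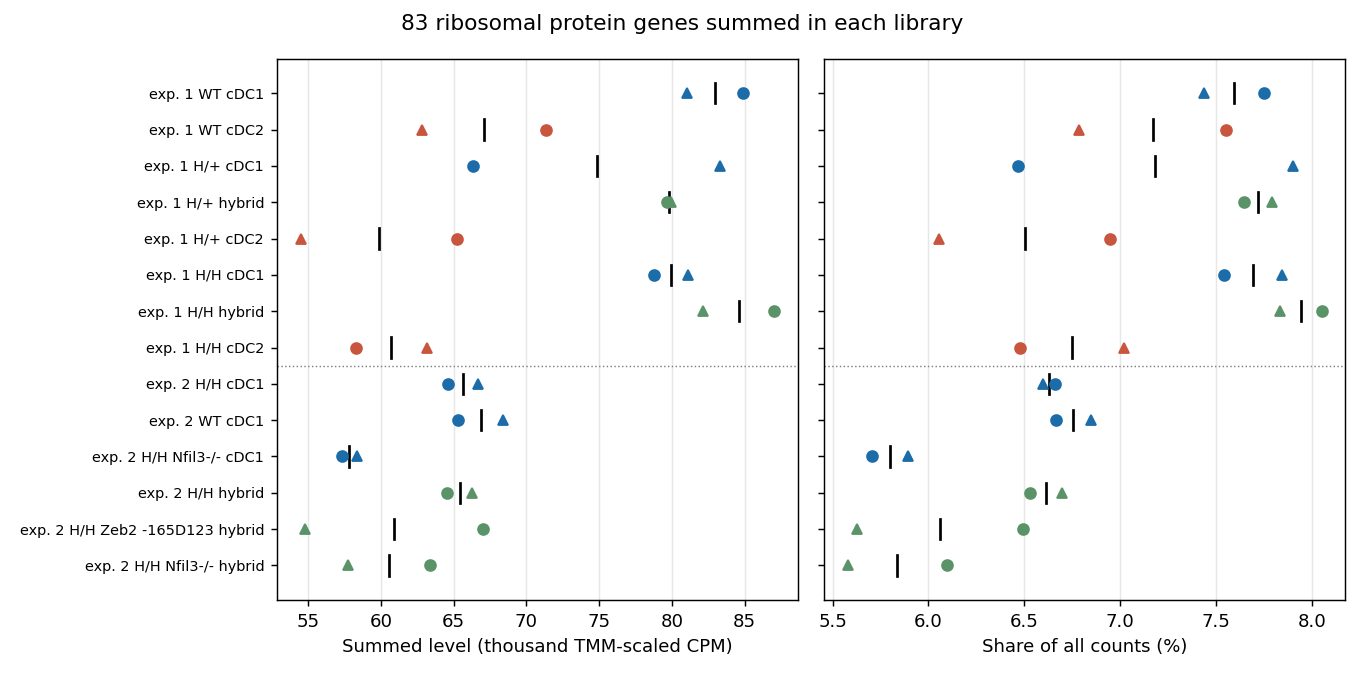
Summed level of the 83 members in each library, as TMM-scaled CPM (left) and as percent of all counts without TMM scaling (right), with replicate 1 as circles, replicate 2 as triangles, the group mean as a black bar, and cDC1 in blue, cDC2 in red and hybrid cDC in green. In experiment 1 the hybrid libraries (79687 to 87040 CPM) all lie above the cDC2 libraries (54481 to 71349 CPM). In percent of counts the cDC1 and cDC2 libraries overlap.

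In WT mice, 43 of 81 members were higher in cDC1 than in cDC2 and 0 were lower at an adjusted p below 0.05 (edgeR quasi-likelihood test, Benjamini-Hochberg over 16036 genes), where 44% of all genes tested were called in either direction and 20.5% were called higher. The median member was 0.33 higher on the log2 scale (1.26-fold, quartiles 0.18 and 0.44) and 75 of 81 were above 0, against a median of -0.07 over all genes and, under scaling by library totals, 0.11 for members and -0.29 for all genes. Under library totals 10 members were called higher and 3 (Rps9, Rps19 and Rps27) lower, where 13.4% of all genes were called higher and 32.7% lower. By role, 22 of 43 large subunit members (median 0.32), 17 of 31 small subunit members (0.37), 2 of 3 stalk members (0.43) and 2 of 4 tested paralogs were higher. The count changed when single libraries were left out, and the share of all genes called in those fits is not given here.

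Rps27l, the paralog of Rps27 known as a target of p53, had the largest difference among members with at least 10 CPM. Its level was 109 and 144 CPM in the WT cDC1 replicates and 62.4 and 62.4 in WT cDC2. It was 2.03-fold higher in cDC1 (log2 1.02, SE 0.17, edgeR adjusted p = 0.000234), and both cDC1 libraries lay above both cDC2 libraries. Rps27l lies on chromosome 9 (ENSMUSG00000036781, chr9:66946086-66949516, plus strand, GRCm38).

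Rps26, a small subunit protein that contacts the mRNA at the exit channel (ENSMUSG00000025362, chr10:128624534-128626747, minus strand), was at 929 and 892 CPM in WT cDC1 and 572 and 490 in WT cDC2. It rose by 0.78 in log2 (SE 0.15, edgeR adjusted p = 0.000569), without overlap between the groups.

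Rpl14, a large subunit protein (ENSMUSG00000025794, chr9:120571444-120574654, plus strand), was at 1751 and 1750 CPM in WT cDC1 and 1087 and 981 in WT cDC2. It rose by 0.76 (SE 0.12, edgeR adjusted p = 7.19e-05) and its 2 cDC1 libraries stood far above the cDC2 libraries. Rpl28, another large subunit protein (ENSMUSG00000030432, chr7:4792874-4795066, plus strand), was at 243 and 228 CPM in cDC1 and 148 and 134 in cDC2, a log2 difference of 0.74 (SE 0.13, edgeR adjusted p = 0.000364). Rpl10, which joins the large subunit late in assembly near the peptidyl transferase centre (ENSMUSG00000008682, chrX:74270812-74273135, plus strand), was at 825 and 796 CPM in cDC1 and 548 and 514 in cDC2, a difference of 0.61 (SE 0.11, edgeR adjusted p = 0.000293). Rpl41, the highest member per kilobase of coding sequence, was at 2052 and 2056 CPM in cDC1 and 1536 and 1383 in cDC2, a difference of 0.49 (SE 0.13, edgeR adjusted p = 0.00672). All of these kept cDC1 above cDC2 in both replicates.

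The stalk, which recruits elongation factors to the large subunit, is built on Rplp0 and carries Rplp1 and Rplp2; its members were all described for their role, after their values were seen. Rplp0 was at 3681 and 3229 CPM in WT cDC1 and 2743 and 2334 in WT cDC2, a log2 difference of 0.44 (SE 0.12, edgeR adjusted p = 0.00582). Rplp1 (ENSMUSG00000007892, chr9:61913284-61914542, minus strand) was at 1242 and 1106 CPM in cDC1 and 946 and 801 in cDC2, a difference of 0.43 (SE 0.15, edgeR adjusted p = 0.0357). Rplp2 was at 1000.1 and 908 CPM in cDC1 and 1056 and 831 in cDC2, with a difference of 0.02 (SE 0.15, edgeR adjusted p = 0.942). The cDC1 and cDC2 libraries overlapped for Rplp2 and did not for Rplp0 and Rplp1.

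The 6 members below 0 in WT cDC1 against cDC2 were Rpl39l, Rps27, Rps9, Rpl22l1, Rps19 and Rps24, and none passed the test under TMM scaling. They were described because they are all members below 0. Rps9, a small subunit protein near the mRNA entry channel (chr7:3703993-3706897, plus strand), was at 2444 and 2367 CPM in cDC1 and 2852 and 2502 in cDC2, a log2 difference of -0.15 (edgeR adjusted p = 0.254). Rps19, the gene most often affected in Diamond-Blackfan anaemia, was at 2470 and 2463 CPM in cDC1 and 2851 and 2401 in cDC2, a difference of -0.09 (edgeR adjusted p = 0.591). Under scaling by library totals Rps9 was at -0.38 (edgeR adjusted p = 0.00399), Rps19 at -0.31 (0.0297) and Rps27 at -0.47 (0.00446), so the call of a fall in these 3 genes depends on the scaling. Under that scaling Rps27l was at 0.80, Rps26 at 0.56, Rpl14 at 0.54 and Rpl28 at 0.52, and all 4 were still called higher.

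The same comparison in H/+ and H/H mice asked whether the difference between the cell types held with the altered enhancer. In H/+ mice 41 of 81 members were higher in cDC1 than in cDC2 and 0 lower, where 38.3% of all genes were called in either direction and 18.3% higher. The member median was 0.35 (quartiles 0.26 and 0.44) against -0.03 for all genes, and 0.17 under library totals, where 16 members were called higher (12.3% of all genes) and 1 (Rps27) lower (27.6%). In H/H mice 55 of 81 were higher and 0 lower, where 36.7% of all genes were called and 17.6% higher. The median was 0.44 (quartiles 0.31 and 0.53) against -0.04, and 0.23 under library totals, where 23 members were called higher (10.8% of all genes) and 1 (Rps27) lower (28.3%). Large subunit members made up 23 and 32 of these calls in H/+ and H/H, and small subunit members 15 and 19. In H/+ the count was 65 without H/+ cDC1 replicate 1, 14 without H/+ cDC1 replicate 2 and 13 without H/+ cDC2 replicate 2. In H/H it was 21 without H/H cDC2 replicate 1 and 27 without H/H cDC1 replicate 2.

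Rps27l had the largest difference among members with at least 10 CPM in both genotypes. It was at 106 and 128 CPM in H/+ cDC1 against 68.6 and 50.3 in H/+ cDC2 (log2 0.98, SE 0.17, edgeR adjusted p = 0.000408), and at 107 and 133 in H/H cDC1 against 55.2 and 69.2 in H/H cDC2 (0.94, SE 0.17, adjusted p = 0.000624). In all 3 genotypes the lowest cDC1 library of Rps27l lay above the highest cDC2 library.

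Rpl28 was at 182 and 243 CPM in H/+ cDC1 and 134 and 111 in H/+ cDC2, and rose by 0.80 in log2 (SE 0.14, edgeR adjusted p = 0.000254). In H/H mice Rpl28 was at 218 and 232 CPM in cDC1 against 120 and 147 in cDC2 and rose by 0.75 (SE 0.14, adjusted p = 0.000448). Rpl10 was at 777 and 769 CPM in H/H cDC1 against 459 and 462 in H/H cDC2 and rose by 0.75 (SE 0.11, adjusted p = 6.63e-05). Rps26 rose by 0.75 in H/+ (SE 0.15, edgeR adjusted p = 0.000922) and by 0.73 in H/H (SE 0.15, adjusted p = 0.00131). Rpl14 rose by 0.75 in H/+ (SE 0.12, adjusted p = 9.44e-05), from 987 and 810 CPM in cDC2 to 1353 and 1677 in cDC1. H/+ cDC1 replicate 1 was the lower replicate for each of Rpl28, Rps26 and Rpl14, and it did not overlap cDC2 for any of them.

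The difference between cDC1 and cDC2 was not shown to depend on the H/H genotype. In the test of the difference itself (the H/H effect in cDC1 minus that in cDC2), 0 of 81 members were called, where 1.9% of all genes were, and 0 had an unadjusted p below 0.05. The member median was 0.11, and the smallest edgeR adjusted p was 0.740.

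Hybrid cDC, the population named hybrid in the labels and sorted from H/+ and H/H mice only, were compared with the cDC2 of the same genotype. In H/+ mice 58 of 81 members were higher in hybrid cDC and 0 lower, where 19% of all genes were called in either direction and 10.3% higher. The median was 0.44 (1.35-fold, quartiles 0.38 and 0.52) against 0.00 for all genes. Under library totals 19 members were called higher, as were 6.27% of all genes, with a median of 0.27 for members and -0.18 for all genes. In H/H mice 66 of 81 were higher and 0 lower, where 25.4% of all genes were called and 12.9% higher. The median was 0.49 (1.41-fold, quartiles 0.42 and 0.61) against -0.03. Under library totals 21 members were called higher, as were 7.17% of all genes, with medians of 0.25 and -0.27. Of the large subunit, 34 of 43 members rose in H/+ and 39 in H/H, and of the small subunit 21 of 31 and 23. These comparisons use the same cDC2 libraries as the cDC1 comparisons of H/+ and H/H, so the 2 kinds of comparison are not independent. The H/+ count was 5 without H/+ cDC2 replicate 2, 18 without H/+ hybrid replicate 1 and 17 without H/+ hybrid replicate 2, and the H/H count was 23 without H/H cDC2 replicate 1 and 28 without H/H hybrid replicate 1.

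The members with the largest changes in hybrid cDC were in part other ones than in cDC1. Rplp1 was at 1399 and 1318 CPM in H/H hybrid cDC and 720.4 and 825 in H/H cDC2 (log2 0.81, SE 0.15, edgeR adjusted p = 0.00126), and at 1143 and 1262 in H/+ hybrid cDC against 846 and 695 in H/+ cDC2 (0.64, SE 0.15, adjusted p = 0.00864). Its H/H hybrid libraries were the highest of the 16 libraries of experiment 1. Rplp0 was higher by 0.51 in H/+ (edgeR adjusted p = 0.00629) and by 0.68 in H/H (0.000501), and Rplp2 by 0.28 in H/+ (0.220) and by 0.43 in H/H (0.0481), so all 3 stalk members passed the test in H/H.

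Rps20, a small subunit head protein that is ubiquitylated when ribosomes collide (ENSMUSG00000028234, chr4:3831334-3835665, minus strand), was at 552 and 552 CPM in H/H hybrid cDC and 289 and 371 in H/H cDC2. It rose by 0.74 in H/H (SE 0.17, edgeR adjusted p = 0.00504) and by 0.72 in H/+ (SE 0.17, adjusted p = 0.00821), where it was at 483 and 516 in hybrid cDC and 342 and 265 in cDC2. Rps28, another small subunit protein (ENSMUSG00000067288, chr17:33819027-33824562, minus strand), was at 1118 and 996 CPM in H/H hybrid cDC and 581 and 656 in H/H cDC2 and rose by 0.77 (SE 0.17, adjusted p = 0.00446). Hybrid and cDC2 libraries did not overlap for Rps20 in either genotype or for Rps28 in H/H.

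Rpl10 rose by 0.70 in H/+ hybrid cDC (745 and 753 CPM against 495 and 431 in cDC2, SE 0.11, edgeR adjusted p = 0.000329) and by 0.79 in H/H hybrid cDC (800.3 and 789 CPM against 459 and 462, SE 0.11, adjusted p = 7.33e-05). Rps26 rose by 0.65 in H/+ hybrid cDC, at 721 and 737 CPM against 530.3 and 401 in cDC2 (SE 0.15, edgeR adjusted p = 0.00633). Both genes had hybrid replicates that were closer to each other than the cDC2 replicates of H/+ were.

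Counted over the 5 comparisons against cDC2, 34 members were called higher in all 5, 6 in 4, 14 in 3, 9 in 2, 9 in 1 and 9 in none. The share called in all 5 was 42.0% of members and 6.97% of all genes tested, and the share called in none was 11.1% of members and 73.2% of all genes. The 9 that were called in none were Rpl21, Rpl22l1, Rpl39, Rpl39l, Rps15a, Rps19, Rps24, Rps27 and Rps27a. The 5 comparisons share cDC2 libraries between cDC1 and hybrid cDC of a genotype, so these counts are a description.

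**Figure D3:**
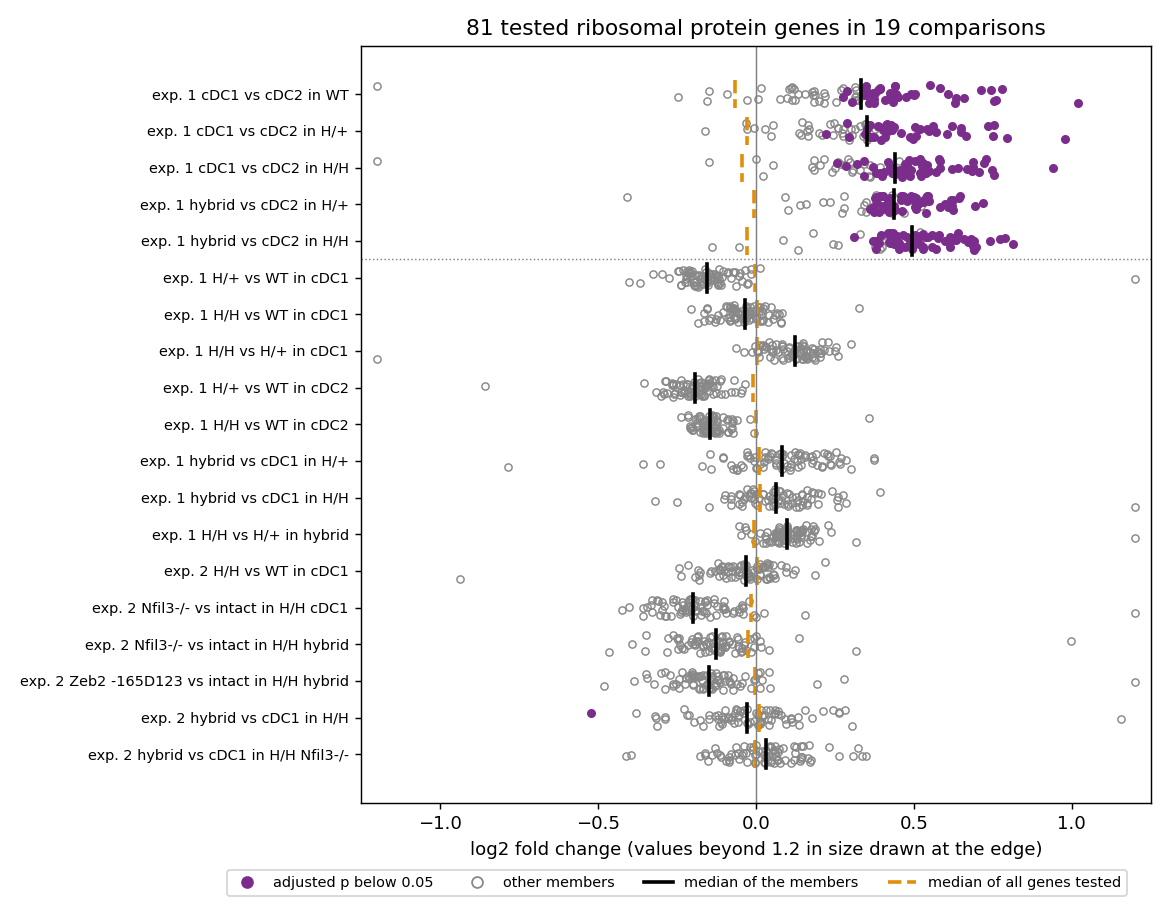
Log2 difference of each of the 81 tested members in 19 comparisons, with members at an edgeR adjusted p below 0.05 in purple, the member median as a black bar and the median of all genes as a dashed orange bar; values beyond 1.2 in size are drawn at the edge and belong to Rpl39l. The 5 comparisons against cDC2 hold nearly all called members, with medians of 0.33 to 0.49.

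Between hybrid cDC and cDC1 of the same genotype the member medians were smaller, from -0.03 to 0.08. In H/+ mice 0 of 81 members were called under TMM scaling, where 16.5% of all genes were, 5 had an unadjusted p below 0.05 and DESeq2 called 3; the median was 0.08 with 60 members above 0. In H/H mice of experiment 1, 0 of 81 were called, where 7.85% of all genes were, 5 had an unadjusted p below 0.05 and DESeq2 called 2; the median was 0.07. The H/+ count was 18 without H/+ cDC1 replicate 2, the higher replicate of that group. In H/H mice of experiment 2, 1 of 81 was called, Rps27l, where 12.5% of all genes were called and 5.25% were called lower, and the member median was -0.03; with TMM factors taken from short transcripts the median was 0.14 and 7 members were called. In H/H Nfil3-/- mice 0 of 81 were called, where 5.28% of all genes were, with 5 at an unadjusted p below 0.05 and a median of 0.03 that turned to -0.03 under library totals.

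Rps27l and Rps27, which encode nearly the same protein, differed in their pattern across cell types. In hybrid cDC Rps27l was at 94.2 and 88.7 CPM in H/+ and 96.5 and 104 in H/H, below the lowest cDC1 library of experiment 1 at 106 and above the highest cDC2 library at 69.2. Against cDC2 it rose by 0.62 in H/+ (SE 0.17, edgeR adjusted p = 0.0205) and by 0.69 in H/H (SE 0.17, adjusted p = 0.00836). Against cDC1 it differed by -0.36 in H/+ (SE 0.17, adjusted p = 0.189) and by -0.25 in H/H (SE 0.17, adjusted p = 0.462), so hybrid cDC lay between the other 2 populations without a called difference from cDC1 in experiment 1.

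In experiment 2, Rps27l was at 122 and 100.5 CPM in H/H cDC1 and 83.4 and 71.3 in H/H hybrid cDC, and fell by 0.52 (SE 0.16, edgeR adjusted p = 0.0404). In Nfil3-/- mice it was at 100.5 and 126 CPM in cDC1 and 86.8 and 83.1 in hybrid cDC, a difference of -0.41 (SE 0.16, adjusted p = 0.172). The Zeb2 -165D123 hybrid libraries were the lowest of experiment 2 for Rps27l, at 65.1 and 56.4 CPM, a difference from H/H hybrid cDC of -0.35 (SE 0.16, adjusted p = 0.293). Hybrid cDC lay below cDC1 in each of these libraries, and only the H/H comparison of experiment 2 passed the test.

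Rps27 (ENSMUSG00000090733, chr3:90212522-90213651, minus strand) was at 680 and 649.9 CPM in WT cDC1 and 819 and 760 in WT cDC2, a log2 difference of -0.25 (SE 0.13, edgeR adjusted p = 0.143). It was at 797 and 772 CPM in H/+ hybrid cDC and 851 and 797 in H/H hybrid cDC, against 518 and 694 in the cDC1 of H/+ mice and 650 and 605 in those of H/H mice. Hybrid cDC were above cDC1 by 0.37 in H/+ (SE 0.13, adjusted p = 0.0685) and by 0.39 in H/H (SE 0.13, adjusted p = 0.0870), without overlap and without passing the test. Per kilobase of coding sequence, Rps27l was at 16.1% to 22.1% of Rps27 in the 6 cDC1 libraries of experiment 1, 7.63% to 9.50% in the 6 cDC2 libraries and 11.3% to 13.1% in the 4 hybrid libraries, 3 ranges that do not overlap. In experiment 2 the ratio was 17.6% to 25.5% in cDC1 and 7.96% to 14.4% in hybrid cDC. A ratio between genes of the same library does not depend on the scaling; the mRNAs of the 2 genes are alike in their coding parts, and how the authors' counting divided shared reads between them was not tested.

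Rpl22, a large subunit protein that binds RNA and represses its paralog Rpl22l1, and Rpl22l1 itself moved less. Rpl22 (chr4:152325742-152334071, plus strand) was at 291 and 304 CPM in WT cDC1 and 253 and 222 in WT cDC2 (log2 0.32, edgeR adjusted p = 0.128) and rose by 0.48 in H/H cDC1 (SE 0.16, adjusted p = 0.0354) and by 0.53 in H/H hybrid cDC against cDC2 (SE 0.16, adjusted p = 0.0293). Rpl22l1 (chr3:28805436-28807424, plus strand) was at 70.7 and 74.9 CPM in WT cDC1 and 85.7 and 75.5 in WT cDC2 (-0.15, SE 0.17, adjusted p = 0.506). Per kilobase, Rpl22l1 was at 25.5% to 28.5% of Rpl22 in cDC1, 35.5% to 37.9% in cDC2 and 23.7% to 30.6% in hybrid cDC of experiment 1, so the cDC2 libraries lay above all others, and at 25.6% to 37.7% in the cDC1 of experiment 2.

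Rpl7l1, a paralog of the large subunit protein Rpl7 (chr17:46773907-46782672, minus strand), was at 191 and 193 CPM in WT cDC1 and 147 and 147 in WT cDC2, and rose by 0.39 (SE 0.10, edgeR adjusted p = 0.00590). Against cDC2 it rose by 0.40 in cDC1 of H/+ mice and by 0.41 in those of H/H mice, but differed by 0.10 in H/+ hybrid cDC (adjusted p = 0.554) and by 0.09 in H/H hybrid cDC (adjusted p = 0.586). Rpl7 (chr1:16101295-16104662, minus strand) was at 1489 and 1438 CPM in WT cDC1 and 1349 and 1202 in WT cDC2, a difference of 0.20 (edgeR adjusted p = 0.234), and rose by 0.40 in H/+ hybrid cDC (adjusted p = 0.0420) and 0.44 in H/H hybrid cDC (adjusted p = 0.0218). The direct comparison of hybrid cDC with cDC1 gave -0.30 for Rpl7l1 in H/+ (edgeR adjusted p = 0.0525) and -0.32 in H/H (0.0698), which did not pass the test. The ratio of Rpl7l1 to Rpl7 per kilobase was 12.2% to 21.0% in cDC1, 12.0% to 15.5% in cDC2 and 9.87% to 12.1% in hybrid cDC of experiment 1. The cDC2 range overlapped both others, and the hybrid range ended just below the cDC1 range.

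**Figure D4:**
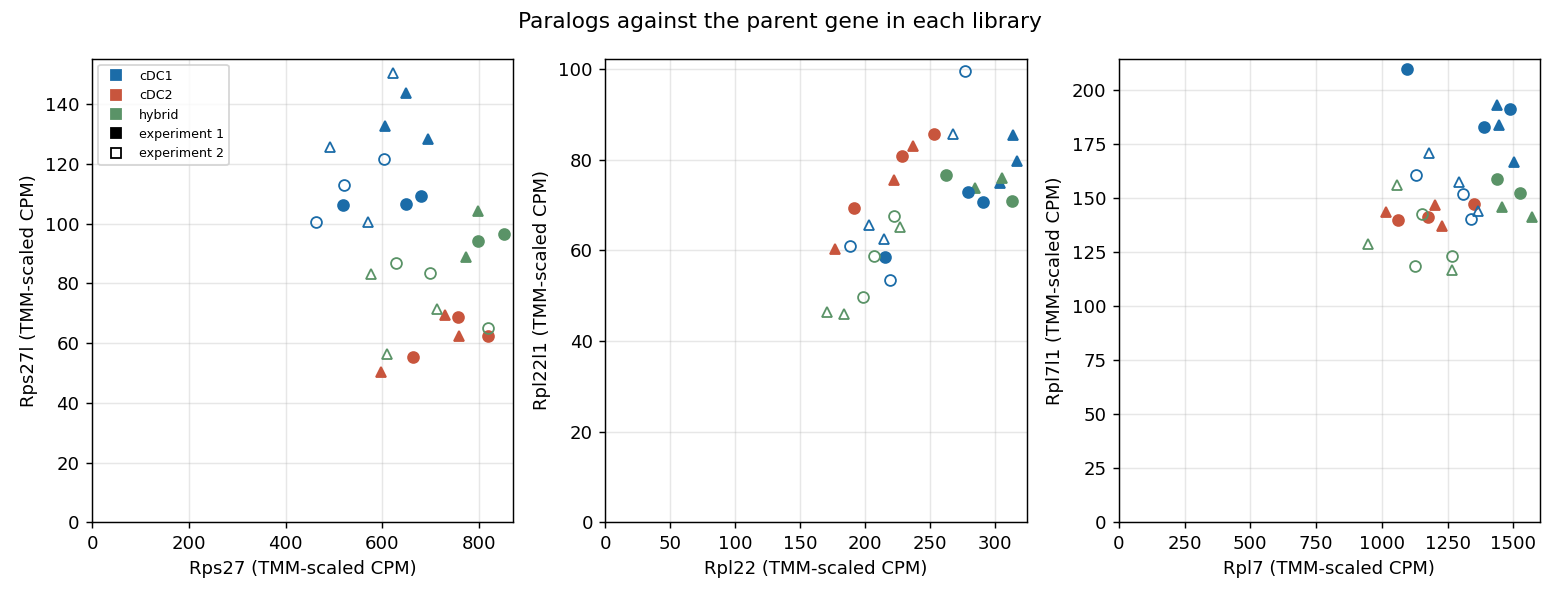
Level of each paralog against that of its partner in each library, both in TMM-scaled CPM, for Rps27l and Rps27, Rpl22l1 and Rpl22, and Rpl7l1 and Rpl7. Colour gives the cell type and shape the replicate, with experiment 1 as filled and experiment 2 as open symbols. The percentages per kilobase given in the text are not drawn. For Rps27l relative to Rps27 they separate cDC1 (16.1% to 22.1%), hybrid cDC (11.3% to 13.1%) and cDC2 (7.63% to 9.50%) in experiment 1.

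Within a cell type, no member was called between genotypes with the edgeR test. DESeq2 called 0 members too in each comparison with 0 edgeR calls, apart from those whose DESeq2 count is given. For H/+ against WT cDC1, 0 of 81 members were called, where 1.47% of all genes were, 5 had an unadjusted p below 0.05 and the median was -0.16 with 79 members below 0; DESeq2 called 1, and 3 were called without H/+ cDC1 replicate 2. Rps2, a small subunit protein, was nearest to the threshold there, at 479 and 584 CPM in H/+ cDC1 and 746 and 660 in WT cDC1 (-0.40, SE 0.11, edgeR adjusted p = 0.0861), and was singled out after its values were seen. For H/H against WT cDC1, 0 of 81 were called, where 4.17% of all genes were and 0 members had an unadjusted p below 0.05, with a median of -0.04 that turned to 0.04 under library totals. For H/H against H/+ cDC1, 0 of 81 were called, where 0.281% of all genes were, with 1 at an unadjusted p below 0.05 and a median of 0.12.

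In cDC2, 0 of 81 members were called for H/+ against WT, where 0.0249% of all genes were, with 8 at an unadjusted p below 0.05, all 81 below 0 and a median of -0.19. For H/H against WT cDC2, 0 of 81 were called, where 0.0811% of all genes were and 0 had an unadjusted p below 0.05, with 80 members below 0 and a median of -0.14. For H/H against H/+ hybrid cDC, 0 of 81 were called, where 0.131% of all genes were, with 1 at an unadjusted p below 0.05 and a median of 0.10. Members of this family move together from library to library, so a count on 1 side of 0 does not weigh as many independent genes.

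In experiment 2, H/H against WT cDC1 again gave 0 called of 81, where 6.32% of all genes were called and 0 members had an unadjusted p below 0.05; the median was -0.03, and 0.02 with TMM factors from short transcripts. Nfil3 is a transcription factor that lowers Zeb2 during cDC1 development. Its loss gave 0 called of 81 in H/H cDC1, where 3.03% of all genes were called. At an unadjusted p below 0.05 there were 15 members, and the share of all genes at that threshold was not computed. Of the 81 members 78 were below 0, with a median of -0.20, or -0.13 in a fit with a term for libraries with Xist above 10 CPM. In experiment 2 these were 1 of the 2 libraries each of Nfil3-/- cDC1, Nfil3-/- hybrid cDC and Zeb2 -165D123 hybrid cDC, and no library of the other groups. Rpl13, a large subunit protein singled out after its values were seen, was nearest to the threshold there, at 1260 and 1218 CPM in Nfil3-/- cDC1 and 1491 and 1781 in H/H cDC1 (-0.40, SE 0.14, edgeR adjusted p = 0.144). The groups did not overlap for Rpl13, and the call was not made.

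Loss of Nfil3 in H/H hybrid cDC gave 0 called of 81, where 3.73% of all genes were, with 5 at an unadjusted p below 0.05 and a median of -0.13, which was -0.06 with the Xist term, -0.20 under library totals and -0.24 with short-transcript factors. Tested against each other, the Nfil3 effects in the hybrid cDC and cDC1 differed for 0 of 81 members, where 0.00689% of all genes were called, with 0 at an unadjusted p below 0.05 and a median of 0.06 that turned to -0.04 with short-transcript factors. For Zeb2 -165D123 against H/H hybrid cDC, 0 of 81 were called, where 4.03% of all genes were, with 7 at an unadjusted p below 0.05 and a median of -0.15, or -0.09 with the Xist term. DESeq2 called 1, and 1 was called without Zeb2 -165D123 replicate 1. Rpl12, which sits at the base of the stalk, was at 91.9 and 68.1 CPM in Zeb2 -165D123 and 106 and 117 in H/H hybrid cDC (-0.48, SE 0.14, edgeR adjusted p = 0.0661), and was singled out after its values were seen. Replicate 2 of Zeb2 -165D123 was the lower library for the summed level and for Rpl12.

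How far the family rose against cDC2 depended on the scaling. With TMM the median gene was at -0.07 in WT cDC1 against cDC2, with library totals at -0.29, and with TMM factors from protein-coding genes outside the family with transcripts of at most 1 kb, a setting added after seeing the data, at -0.31. The member median was 0.33, 0.11 and 0.09 under these 3 scalings, and its distance from the median of all genes was 0.40 under each. A scaling shifts all genes of a comparison by nearly the same amount, so this distance is fixed by construction and says nothing about stability. With short-transcript factors 14 members were called in WT, 10 higher (12.4% of all genes) and 4 lower (Rps27, Rps9, Rps19 and Rpl22l1; 32.3% of all genes). In H/+ mice 18 were called higher (11.7% of all genes), and Rps27 and Rps9 lower (26.7%). In H/H mice 22 were called higher (9.61% of all genes) and Rps27 lower (28.6%). In hybrid cDC against cDC2, 27 were called higher in H/+ (5.97% of all genes) and 40 in H/H (7.43%). In WT cDC1, Rpl10, Rpl10a, Rpl14, Rpl28, Rpl31, Rps2, Rps26 and Rps27l were among the members called higher both under library totals and with short-transcript factors.

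**Figure D5:**
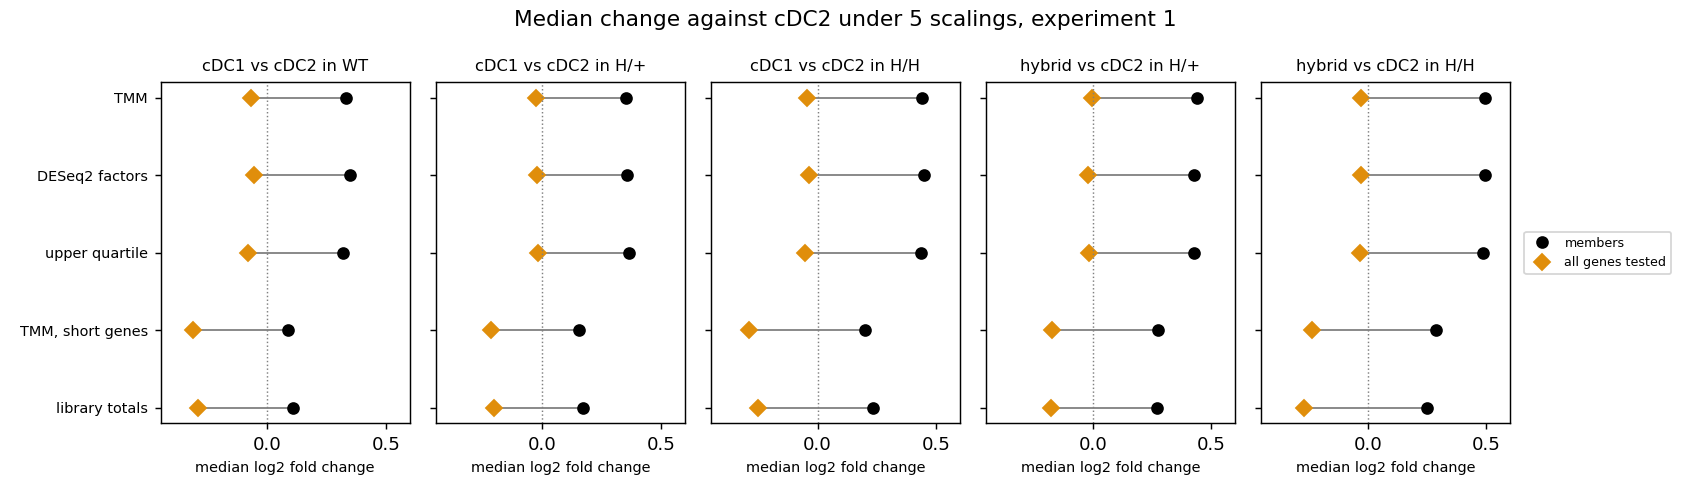
Median log2 difference of the 81 tested members and of all genes under 5 scalings (TMM, DESeq2 size factors, upper quartile, library totals and TMM factors from short transcripts) in the 5 comparisons against cDC2. In WT the member median falls from 0.33 with TMM to 0.11 with library totals and 0.09 with short-transcript factors, while the median of all genes moves from -0.07 to -0.29 and -0.31.

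Members are short mRNAs, and the summed level of other short mRNAs was also higher in cDC1 and hybrid cDC than in cDC2. Protein-coding genes outside the family with transcripts of at most 1 kb summed to 111622 to 134387 CPM in the cDC1 libraries of experiment 1, 82623 to 95511 in cDC2 and 114238 to 125131 in hybrid cDC, 10.9% to 12.3%, 9.19% to 10.3% and 11.0% to 11.8% of counts. Of 1018 such genes tested, 349 were higher and 186 lower in WT cDC1 than in cDC2, with a median of 0.21, against 2604 higher and 2959 lower of 11495 longer genes and a median of -0.06. The part of transcript length in the result was not tested beyond the short-transcript scaling above. Markers of other cells also differed: the 8 T cell markers summed to 46.4 to 61.7 CPM in cDC2 against 18.7 to 25.4 in cDC1 and 18.9 to 21.3 in hybrid cDC, and the 10 monocyte and macrophage markers, which cDC2 share in part, to 752 to 958 against 88.7 to 130 and 590 to 733. In experiment 1, Cd3e was at most 3.52 and Ncr1 at most 0.785 CPM, and the part of these cells in the result was not tested.

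The family has many processed pseudogenes, and 62 members have 317 numbered pseudogene rows in the tables. For 4 members more than 50% of the counts of the gene and its pseudogene rows together lay in the pseudogene rows: 57.8% for Rpl28, 55.3% for Rpl10, 51.8% for Rps6 and 50.2% for Rps23. Levels of these members are therefore uncertain, and the same holds to a lesser degree for 19 further members between 10% and 50%. Only pseudogene rows named after a member were counted. Pseudogenes under other symbols were not searched for, so the remaining members are not shown to be free of this. With pseudogene rows added, Rpl28 was at 0.74, Rpl10 at 0.64 and Rps6, the small subunit protein phosphorylated by S6 kinases, at 0.38 in WT cDC1 against cDC2, and all 3 were still called. Rps23, which lies in the decoding centre, was at -0.06 with and 0.10 without the pseudogene rows, and was called in neither.

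Genes that build or serve the ribosome are described from lists made for this purpose. Of the 4 ribosomal protein genes outside the naming rule, 2 rose in WT cDC1 against cDC2 and 0 fell (median 0.20). Of all genes, 20.5% were called higher there and 23.4% lower. Rpl36al, a paralog of Rpl36a, was at 310.1 ± 4.81 CPM (SD, n = 2) in cDC1 and 147 ± 6.19 in cDC2 and rose by 1.08 in log2, and Rack1, a scaffold on the small subunit, rose by 0.31. Fau, a ubiquitin-like fusion with a small subunit protein, differed by -0.11 (edgeR adjusted p = 0.544). In H/H hybrid cDC against cDC2 all 4 rose (median 0.47), where 12.9% of all genes were called higher.

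Of 40 ribosome biogenesis factors tested, 26 rose and 1 fell in WT cDC1 against cDC2, where 20.5% of all genes were called higher and 23.4% lower, with a median of 0.49. Polr1a, the largest subunit of RNA polymerase I, rose the most, to a mean of 79.7 CPM in cDC1 from 28.1 in cDC2 (edgeR adjusted p = 1.7e-08). Gar1, of the pseudouridylation complexes, rose by 1.17, and Tsr1, a small subunit maturation factor, by 1.15, whereas Mdn1, an ATPase that remodels large subunit precursors, was the member of the list that fell, by 0.34. In hybrid cDC against cDC2, 5 rose in H/+ (12.5%, against 10.3% of all genes) and 6 in H/H (15%, against 12.9%), shares near those of all genes. Against cDC1, 10 fell in H/+ (25%, against 6.68% of all genes) and 7 in H/H (17.5%, against 2.61%) in experiment 1, and 8 in H/H (20%, against 5.25%) in experiment 2.

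Of 21 translation elongation and initiation genes, 12 rose (57.1%) and 1 fell in WT cDC1 against cDC2, where 20.5% of all genes were called higher, with a median of 0.44. Eef1b2, an exchange factor for elongation factor eEF1A, was at a mean of 1063 CPM in cDC1 and 299 in cDC2 and rose by 1.83, Eif3k rose by 0.66 and Btf3, which guards the nascent chain at the exit tunnel, by 0.65, while Eif4b fell by 0.33. In hybrid cDC against cDC2, 6 rose in H/+ (28.6%, against 10.3% of all genes) and 12 in H/H (57.1%, against 12.9%). Of 78 mitochondrial ribosomal proteins, which belong to another ribosome, 54 rose (69.2%) and 0 fell in WT cDC1 against cDC2, with a median of 0.44. Mrpl42 was at 183 ± 21.2 CPM (SD, n = 2) in cDC1 and 63.6 ± 1.28 in cDC2 and rose by 1.52, Mrps28 rose by 0.98 and Mrps18b by 0.97. In hybrid cDC against cDC2, 11 mitochondrial ribosomal protein genes rose in H/+ (14.1%, near the 10.3% of all genes) and 21 in H/H (26.9%, against 12.9%). Against cDC1, 9 fell in H/+ (11.5%, against 6.68% of all genes) and 6 in H/H (7.69%, against 2.61%) in experiment 1, and 14 in H/H (17.9%, against 5.25%) in experiment 2.

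Of 16 regulators of ribosomal protein genes, 4 were higher (25%) and 4 lower (25%) in WT cDC1 than in cDC2, near the 20.5% and 23.4% of all genes, with a median of 0.20. Mycl, the Myc family member known from cDC1, was at 55.7 ± 3.71 CPM (SD, n = 2) in cDC1 and 11.6 ± 1.41 in cDC2 and rose by 2.27 in log2. Eif4ebp1, a translational repressor that mTORC1 switches off, rose by 0.78, Larp1, which binds TOP mRNAs, by 0.56 and Mtor by 0.49. Rptor, the mTORC1 scaffold, fell by 0.86, Rps6kb2, an S6 kinase, by 0.56, Rictor, of mTORC2, by 0.41 and Mxd4, a Myc antagonist, by 0.34.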

How the data were processed

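Per the labels, total RNA of 10 ng with an integrity number above 9.0 was made into libraries with the SMARTer Ultra Low kit. The deposited tables hold the authors' expected counts per gene, and the submitters' processing notes name bcl2fastq, DRAGEN and edgeR. The genome build and annotation are not given in the sources used here. Gene identifiers matched GENCODE M21 (GRCm38) for 99.5% of 55487 rows and all 83 members, after 287 repeated lines of 55774 were removed. Members and lists were chosen with earlier results of these data known. Of the member values 91.1% were not whole, against 10.8% and 10.2% of all values in experiments 1 and 2. The shares of all values include rows with too few counts to be tested, so they are not a like comparison. Members were not compared with other genes of similar level. Whether reads divided between alike genes explain the difference was not tested.

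Counts were rounded, filtered with edgeR's filterByExpr and scaled by TMM, and fitted separately for each experiment over all groups without covariates with edgeR's quasi-likelihood test (edgeR 4.0.16, R 4.3.3), which left 16036 genes with 8 residual degrees of freedom and 14504 with 6. The p-values were adjusted by Benjamini-Hochberg over all genes tested, with a threshold of 0.05. Shares of all genes called refer to adjusted p-values. Counts of members at an unadjusted p below 0.05 have no matching share, since it was not computed over all genes. Apart from library totals and short-transcript factors against cDC2, member counts from the alternatives are also given without the share of all genes. This includes DESeq2 and the fits without 1 library. A change in such a count can come with a change over all genes, so it is not a result about the members alone. The script was tested on simulated data. Alternatives were other scalings, no filter, DESeq2 1.42.0, a replicate block, added pseudogene rows and each library left out. The text names the paralog pairs with at least 10 CPM in a group, the 3 highest and 3 lowest members per length, up to 4 called members of largest change in each direction of a comparison, with at least 10 CPM, and up to 3 called genes of a list in WT; other genes are said to be chosen later. Tables were normalized separately, so tests stay within an experiment. Some genes that this rule names are not reported here.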

Additional observations from a re-analysis of the deposited data

How the results depend on the processing

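Of the counts of called members over the comparisons and settings, 265 were within 1.5 times the main count and 62 were not. Of the single members, 1017 kept their call, 36 gained it, 62 lost it and 0 reversed. Most comparisons had 0 calls in the main fit and agreed easily, so this tally does not measure the stability of the 5 comparisons against cDC2. Their main counts were 43, 41 and 55 for cDC1 in WT, H/+ and H/H, and 58 and 66 for hybrid cDC in H/+ and H/H. With library totals the counts were 13, 17 and 24 for cDC1 against cDC2 in WT, H/+ and H/H, 19 and 21 for hybrid cDC against cDC2 in H/+ and H/H, 3 for hybrid cDC against cDC1 in H/+ and 1 for Zeb2 -165D123. With TMM factors from short transcripts, added after seeing the data, they were 14, 20, 23, 27 and 40, 3 and 1 for hybrid cDC against cDC1 in H/+ and H/H, 7 and 1 for that comparison in experiment 2 in H/H and Nfil3-/-, and 1 for Nfil3-/- in hybrid cDC. In H/+ hybrid cDC against cDC1, DESeq2 size factors, upper quartile scaling and added pseudogene rows gave 1, no filter 4 and DESeq2 3. For H/+ against WT cDC1, no filter gave 2 and DESeq2 1. For H/H hybrid cDC against cDC1 in experiment 1, no filter gave 1, DESeq2 2, and a fit of only the groups compared or of both experiments 5; in experiment 2, no filter gave 2 and both experiments 5. A fit of only the groups compared gave 12 and 28 for cDC1 and hybrid cDC against cDC2 in H/+, and 5 for Nfil3-/- in hybrid cDC. For Zeb2 -165D123, TMM without the members, no filter and DESeq2 each gave 1. With the replicate number as a block, the counts were 1 for H/+ against WT cDC1 and for hybrid cDC against cDC1 in H/+ and in H/H, and 0 in H/H of experiment 2; a term for Xist above 10 CPM gave the same counts and, in experiment 1, is the same fit, since it marks all replicate 2 libraries. In experiment 2 it moved the member medians of Nfil3-/- in cDC1 and in hybrid cDC and of Zeb2 -165D123 to -0.13, -0.06 and -0.09. Same-numbered libraries deviated together in part: correlations were 0.04 to 0.34 over 28 pairs of groups in experiment 1, 24 of them above 0.1, and -0.20 to 0.23 over 15 pairs in experiment 2, 2 of them above 0.1. These correlations are over all genes tested. Over the members alone they ran wider, from -0.42 to 0.91 in experiment 1 and from -0.83 to 0.81 in experiment 2. Members of same-numbered libraries thus deviated strongly together in some pairs of groups and in opposite directions in others. As not every pair passed 0.1 over all genes and the labels name no shared source, the numbers were not taken to pair the samples. Within a genotype of experiment 1, all pairs passed 0.1, at 0.17 in WT, 0.22 to 0.34 in H/+ and 0.11 to 0.20 in H/H. Pairing within a genotype was therefore not settled. With the replicate block, the member medians against cDC2 were 0.33, 0.35 and 0.44 for cDC1 in WT, H/+ and H/H. They were 0.44 and 0.49 for hybrid cDC in H/+ and H/H. Leaving out 1 library gave 13 to 40 calls in WT, 13 to 65 in H/+ and 21 to 50 in H/H for cDC1 against cDC2, 5 to 67 and 23 to 55 for hybrid cDC against cDC2, 0 to 18 for hybrid cDC against cDC1 in H/+, 0 to 3 for H/+ against WT cDC1, 0 to 1 for Zeb2 -165D123 and for hybrid cDC against cDC1 in H/H of experiment 2, and 0 to 0 elsewhere; a group with 1 library left is assumed to vary like the others. The causes were not tested. With 2 replicates a group, the precision of single members limits which small differences could be called.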
